A study of Danio rerio with 12 samples.

Results

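Fragments of the zebrafish genome assigned to 8 genes for transcription regulators of heart, brain and body patterning are described here. The genes are irx1a, irx2a, gata4, casz1, lhx2b, znf536, runx1t1 and zmiz1a. They were chosen by gene name from lists that had themselves been selected on differences in methylation, so those differences are given as a description. The 8 genes held 9 of the 153 distinct fragments in the authors' deposited tables, and znf536 held 2 of these. The other genes held 1 fragment each. The 153 fragments carried 149 gene names in all.

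Larvae of the AB strain were raised singly in wells and collected at 7 days post-fertilisation, after 7 days as control or in triclosan at 50 or 100 µg/L. Triclosan is an antibacterial agent used in consumer products. Each library came from a pool of 24 whole larvae, with 4 libraries per group, and was read by bisulfite sequencing of a reduced part of the genome. There, DNA is cut with the enzyme MspI, and short CpG-rich pieces are treated with bisulfite, which marks unmethylated cytosines, and sequenced. The labels give the control no dose, do not say whether it held a solvent, and do not name the clutches behind the pools. In pools of whole larvae, a changed methylation level and a changed mix of cell types cannot be told apart.

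Irx1a and irx2a belong to the Iroquois family of homeodomain proteins, which set out territories in the early nervous system and the heart and whose genes lie in clusters. Gata4 and casz1 encode zinc finger factors needed for heart formation, casz1 as known from frog and mouse. Lhx2b is a LIM homeodomain factor of forebrain and eye, and znf536 is a zinc finger protein that holds back neuronal differentiation in mammalian cells. Runx1t1 is a corepressor that recruits histone deacetylases, and zmiz1a is related to the PIAS proteins and acts as a coactivator in mammals. In vertebrates most CpG sites are methylated, CpG islands at promoters are mostly not, and distant regulatory elements are often in between.

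Coordinates are those of build Zv9. The low dose was set against control in a table of 55 fragments, the high dose against control in one of 17, and both doses against each other in one of 99. Each entry gives the methylation level of both groups, an F statistic with its unadjusted p value, and how many libraries were used. Values of single libraries and read depth were not analysed here. The standard error (SE) and 95% interval of each difference, and the spread between libraries (SD), are those implied by the deposited F, if F was computed on the printed levels. They take no account of the selection of the fragments on these same differences. Which library was left out where 3 of 4 were used is not stated. None of the 9 fragments was listed in more than 1 table (0 of 9), against 18 of all 153, and nothing is read from this count. The level in the third group is thus not known for any of the 9. Differences are in percentage points, second group minus first.

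Of the 9 fragments, 3 were higher and 6 lower in the second group. At 50 µg/L against control 1 of 4 was higher, at 100 µg/L against control 2 of 4, and at 100 against 50 µg/L 0 of 1. Over all listed fragments the shares that were higher were 41.8%, 47.1% and 64.6% in the same order. Both the members and these shares come from the contrasts that chose the fragments, and nothing is read from them.

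**Figure D1:**
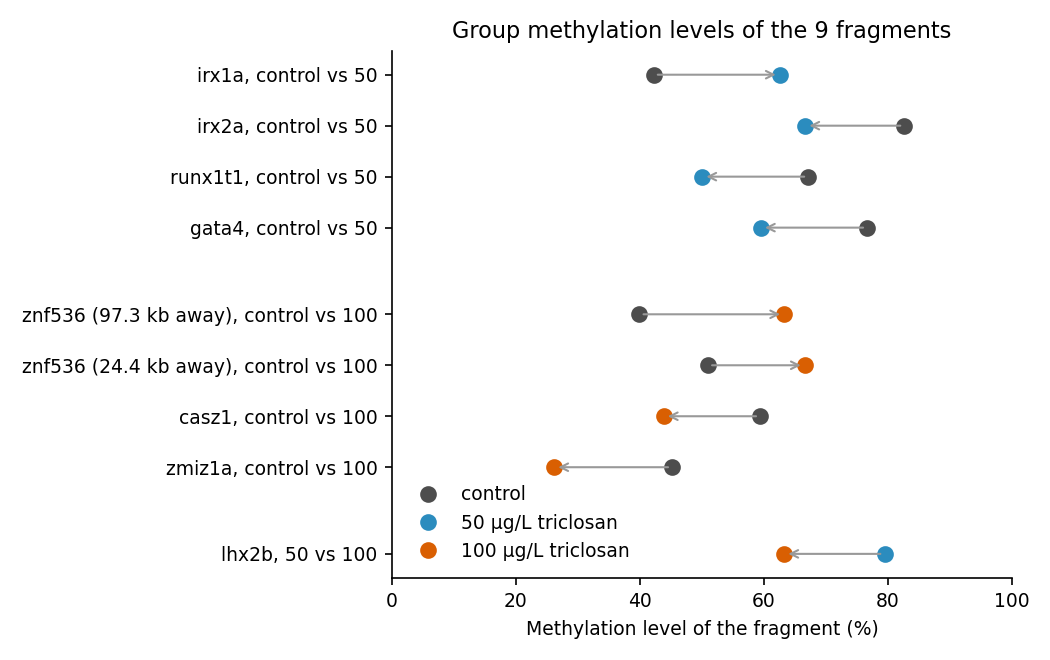
Methylation level in percent of the 9 fragments in the 2 groups of the table that lists each, as group values from the authors' deposited tables without error bars. Arrows run from the first to the second group. Levels lie between 26.15% and 82.69%, and irx1a and both znf536 fragments are the 3 with arrows to the right.

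The Iroquois fragments came from 1 stretch of chromosome 16 and differed in opposite directions. The fragment assigned to irx1a (chromosome 16, 764503 to 764551) had 42.2% methylation in control larvae and 62.6% in those kept in 50 µg/L, by the authors' deposited table. Its difference of 20.4 points had an SE of 6.29 and a 95% interval of 4.21 to 36.5, with 4 control and 3 exposed libraries. The fragment assigned to irx2a (684482 to 684541) went the other way in the authors' deposited table, with 82.7% in control and 66.7% with 50 µg/L. Here the difference was −16.03 points (SE 3.75, interval −26.4 to −5.63), from 3 libraries in each group. The authors' unadjusted p values of the F test were 0.0230 for irx1a and 0.0128 for irx2a, ranks 38 and 28 of 55. Thresholds per rank were given only for the comparison between doses. The 2 fragments stood 40.5 points apart in control and 4.07 points apart at 50 µg/L. Each was listed for a difference of at least 15 points, and the signs were opposite. A large change of this gap was thus set by the selection, and nothing is read from it.

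By the gene ranges of the deposited table, both fragments lie in the 250.4 kb between irx2a (565648 to 570195) and irx1a (820641 to 824806), with 79.96 kb between them. Each was nearer to the gene it is named for. The irx2a fragment was 114.3 kb from irx2a and 136.1 kb from irx1a, so it lay 10.9 kb from the middle of the interval. The irx1a fragment was 56.1 kb from irx1a and 194.3 kb from irx2a. Neither lay inside the CpG island paired with it. The island paired with the irx1a fragment was 6.48 kb from it and is itself 72.9 kb from the irx2a fragment. The island paired with the irx2a fragment was further from it, at 114.1 kb, and covered 696 bp at the higher-coordinate end of the irx2a gene. Paired islands are thus not always the nearest. In the RefSeq gene table of assembly GRCz12tu, which is another build and was used for names and order only, irx4a precedes irx2a on the same chromosome and tars2 begins between irx2a and irx1a. Of the 9 fragments, the irx1a fragment was the shortest, at 49 bp with 4 CpG sites, and the irx2a fragment held 3 CpG sites in 60 bp.

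**Figure D2:**
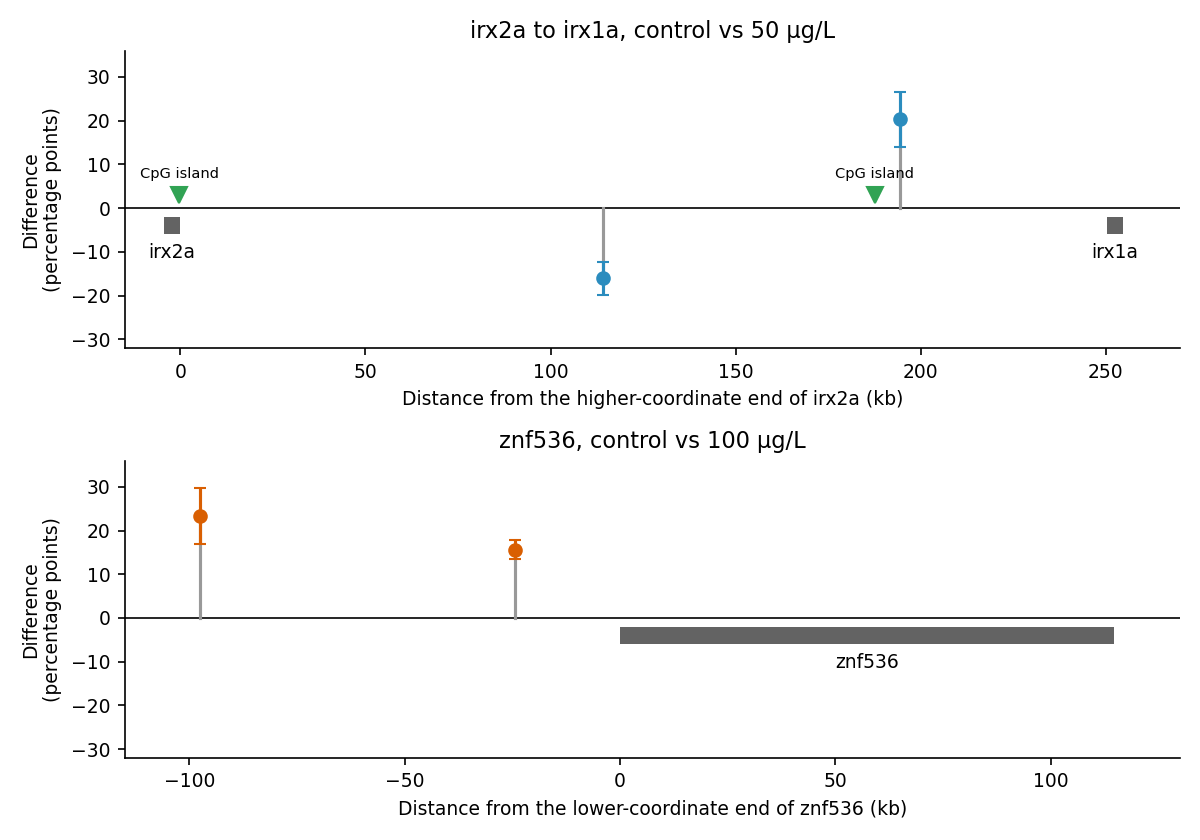
Position of the Iroquois fragments (upper panel, control against 50 µg/L) and of the znf536 fragments (lower panel, control against 100 µg/L), in kb from a gene end on build Zv9, against the difference in percentage points with its implied SE as bars. Grey boxes are the deposited gene ranges and green triangles the CpG islands that the tables pair with the fragments. The Iroquois fragments point in opposite directions across 79.96 kb, and the znf536 fragments both upwards across 72.9 kb. The island paired with znf536 lies outside the lower panel.

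Of the heart regulators, gata4 was the only one of the 8 genes with a fragment on an exon, and casz1 the only one with a fragment on an intron. The gata4 fragment (chromosome 20, 53591264 to 53591319) has a control level of 76.7% in the authors' deposited table, beside 59.5% with 50 µg/L. Its difference was −17.2 points (SE 4.36, interval −28.4 to −5.98), with 4 and 3 libraries. It began 4.96 kb into the 15.8 kb gene range, counted from the lower coordinate. With 8 CpG sites in 56 bp, or 14.3 per 100 bp, it was the densest of the 9 and ranked 3 among the 153 listed fragments. Its paired CpG island was 90.6 kb away, and other islands were not searched.

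The casz1 fragment (chromosome 23, 29244346 to 29244424) was listed for the higher dose. The authors' deposited table puts it at 59.4% in control and 43.8% with 100 µg/L. The difference of −15.6 points (SE 3.50, interval −24.1 to −7.03) rested on all 4 libraries of both groups. It was the smallest of the 9 differences, close to the limit of 15 points below which the tables list nothing. The fragment held 3 CpG sites in 79 bp and lay 42.4 kb into the 44.9 kb gene range, 2.38 kb from its higher-coordinate end. The fragments of gata4 and casz1 were thus both lower in the exposed group, in separate comparisons that share the control libraries. Irx1a is also on the heart list used below, and its fragment was higher, by 20.4 points at 50 µg/L. Over all listed fragments, 32 of 55 were lower at 50 µg/L and 9 of 17 at 100 µg/L, so nothing is read from these directions.

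Among the brain regulators, both znf536 fragments were higher at 100 µg/L than in control, and the lhx2b fragment was lower at 100 than at 50 µg/L. Runx1t1 and casz1 are also on the brain list used below. Their fragments were lower than in control, by 17.1 points at 50 µg/L for runx1t1 and 15.6 points at 100 µg/L for casz1. The 2 znf536 fragments lay on chromosome 7 on the lower-coordinate side of the gene (47980945 to 48095585), with 72.9 kb between them. No other fragment listed for the same comparison lay within 100 kb of them. The outer one (47883469 to 47883615) is given in the authors' deposited table with 39.9% in control and 63.3% with 100 µg/L. Its difference of 23.4 points (SE 6.44, interval 6.84 to 39.9, 3 and 4 libraries) was the largest of the 17 listed for this comparison. The inner one (47956467 to 47956541), 24.4 kb from the gene, is given there, in the authors' deposited table, with 51.0% and 66.6%. It differed by 15.7 points (SE 2.14, interval 10.4 to 20.9, all 4 libraries of both groups) and had the lowest p value of the 17, 0.000331 in the authors' deposited table.

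The 2 znf536 differences were 7.73 points apart. That gap was not tested. Both fragments share the same pools, so a paired comparison would need values per library, which were not analysed here. The SE of the outer fragment was 3.01 times that of the inner one. Their levels lay 11.1 points apart in control and 3.33 points apart at 100 µg/L. This narrowing restates the same 7.73 points, and nothing is read from it. The CpG island paired with them was 334 and 407 kb away. They differed in make-up, with 6 CpG sites in 147 bp for the outer and 4 in 75 bp for the inner. In the RefSeq order the neighbours of znf536 are ccne1 and tshz3b. The nearer of the 2 fragments was 24.4 kb from the deposited gene range, so neither is at a promoter as that range draws the gene.

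The lhx2b fragment (chromosome 8, 3149837 to 3149891) was listed between the doses. By the authors' deposited table its level was 79.5% with 50 µg/L and 63.3% with 100 µg/L, from 3 and 4 libraries. The difference of −16.2 points had an SE of 5.39 and an interval of −30.04 to −2.36, the end nearest to 0 among the 9. Its p value of 0.0298 ranked 77 of 99 and was above the deposited threshold for that rank, 0.0209. At or under such thresholds were 33.3% of the 99 fragments, and 0 of 1 here. The Benjamini-Hochberg adjusted p was 0.0712 over the 184 tests that the deposited thresholds imply at a level of 0.05, and 0.142 over the 368 implied at 0.1. The level the authors used is not known. Both adjusted values take the rank among the 99 listed fragments, which had differences of at least 15 points. They are not corrected for that selection. The fragment lay 102 kb from lhx2b and 26.7 kb from its paired island, and held 3 CpG sites in 55 bp.

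**Figure D3:**
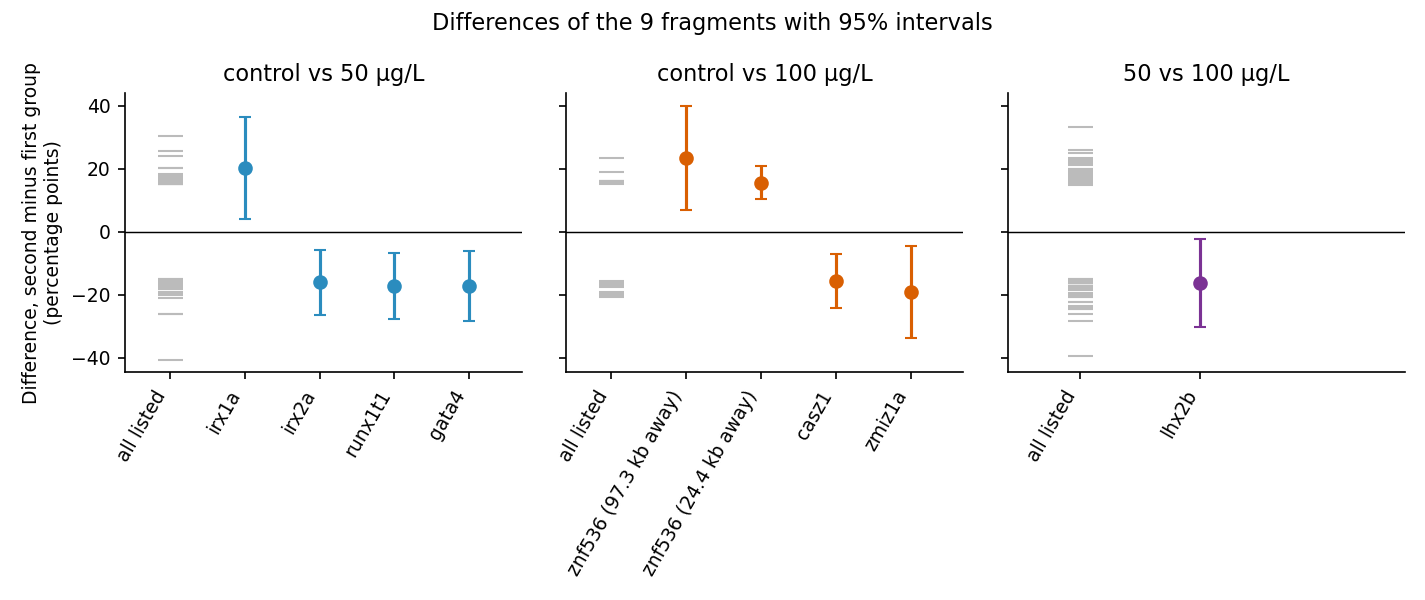
Difference between groups in percentage points for the 9 fragments, with the 95% interval implied by the deposited F, beside all listed differences of the same comparison as grey dashes. No listed difference is closer to 0 than 15 points, the limit of the lists. The interval of lhx2b comes closest to 0 and that of the inner znf536 fragment is the narrowest.

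The cofactor genes runx1t1 and zmiz1a had the fragments closest to a gene without being in it. That of runx1t1 (chromosome 19, 35062867 to 35063011) lay 3.22 kb from the lower-coordinate end of the gene. The authors' deposited table puts control at 67.2% and 50 µg/L larvae at 50.04%. The difference was −17.1 points (SE 4.06, interval −27.6 to −6.70), from 3 control and 4 exposed libraries. It had 6 CpG sites in 145 bp and an island 27.3 kb away.

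The zmiz1a fragment (chromosome 13, 30639287 to 30639399) lay 5.68 kb from the lower-coordinate end of its gene. Of the 9 it reached the lowest level in the authors' deposited table, with 45.2% in control and 26.15% with 100 µg/L. The difference was −19.1 points (SE 5.96, interval −33.6 to −4.49) with all 4 libraries of both groups. Its p value of 0.0186 ranked 16 of the 17 of this comparison in the authors' deposited table. It held 4 CpG sites in 113 bp, the lowest density of the 9 at 3.54 per 100 bp, and the paired island was 34.9 kb away. The tables mark a gene end as 5′ or 3′, but in 171 of 171 entries that mark follows the lower or higher coordinate and not a strand. Whether the runx1t1 and zmiz1a fragments lie before or after their genes is therefore not known from the tables.

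Place, length and CpG content varied among the 9 fragments, and their medians can be set beside those of all 153. In all, 7 of 9 lay outside genes (77.8%, against 61.4% of the 153), and the median gap to the gene was 56.1 kb against 51.8 kb. Within 10 kb of a gene lay 2 of these 7, against 14 of the 94 outside genes in all lists. Median length was 75 bp against 101 bp, and median CpG number 4 against 5. CpG density had a median of 5 per 100 bp against 5.33, and gata4 and irx1a, at 14.3 and 8.16, stood above the other 7, which lay between 3.54 and 5.45. Levels over both groups had a median of 61.05% against 60.9%, so the 9 fragments were partly methylated like the lists as a whole. All 9 lay outside the CpG islands paired with them, by 6.48 to 407 kb, with a median of 90.6 kb. Over the 152 listed fragments with a paired island, the gap ran from 0 to 608 kb, with a median of 72.4 kb. How many of the 152 lay outside their island was not counted, so nothing is read from the 9 of 9. A paired island need not be the nearest one, and other islands were not searched. The 9 fragments are too few for any of these shares to set them apart from the other listed fragments, and no test was made.

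**Figure D4:**
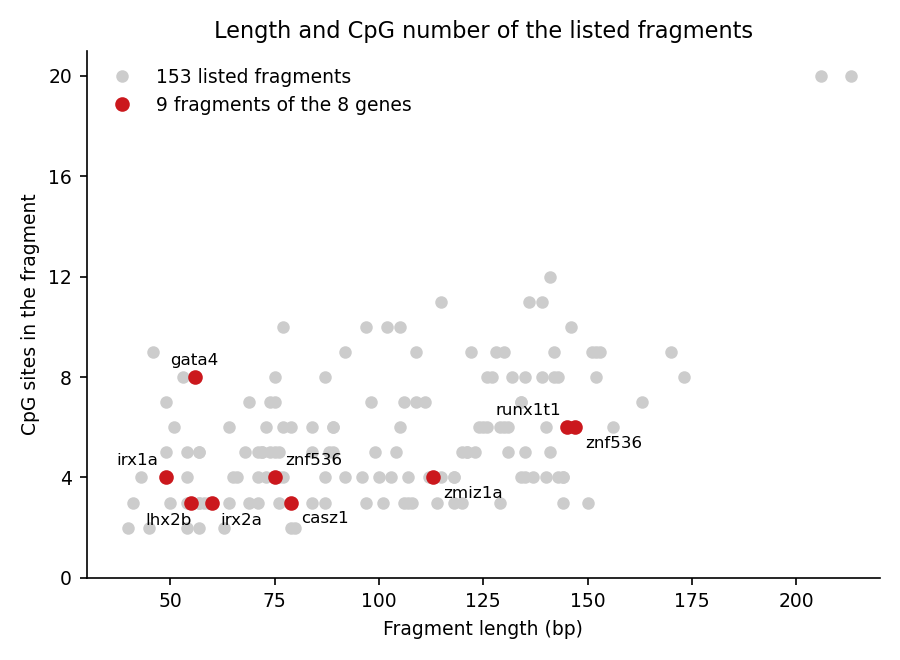
Length in bp against the number of CpG sites for the 153 listed fragments (grey) and the 9 fragments of the 8 genes (red). The gata4 fragment has 8 CpG sites in 56 bp, while irx2a, lhx2b and casz1 have 3 each.

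The spread between libraries implied by F ranged from 3.02 to 8.43 points (SD) over the 9. Both ends were znf536 fragments, and they are also the lowest and the highest of the 17 fragments listed at 100 µg/L against control. At 50 µg/L against control, irx2a, runx1t1 and gata4 had 4.59, 5.32 and 5.70 points, under the median of 6.18 over the 55, and irx1a had 8.23. Casz1 had 4.94 and zmiz1a 8.42 points, beside a median of 5.52 over the 17, and lhx2b had 7.05 beside 6.40 over the 99. The 3 fragments with the largest differences, those of irx1a and zmiz1a and the outer one of znf536, were also the 3 with the largest spread, while lhx2b had a larger spread than gata4 and a smaller difference. The tables list no difference under 15 points and no p value above 0.053, so a fragment with a wide spread could be listed only with a large difference, and nothing is read from this order.

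**Figure D5:**
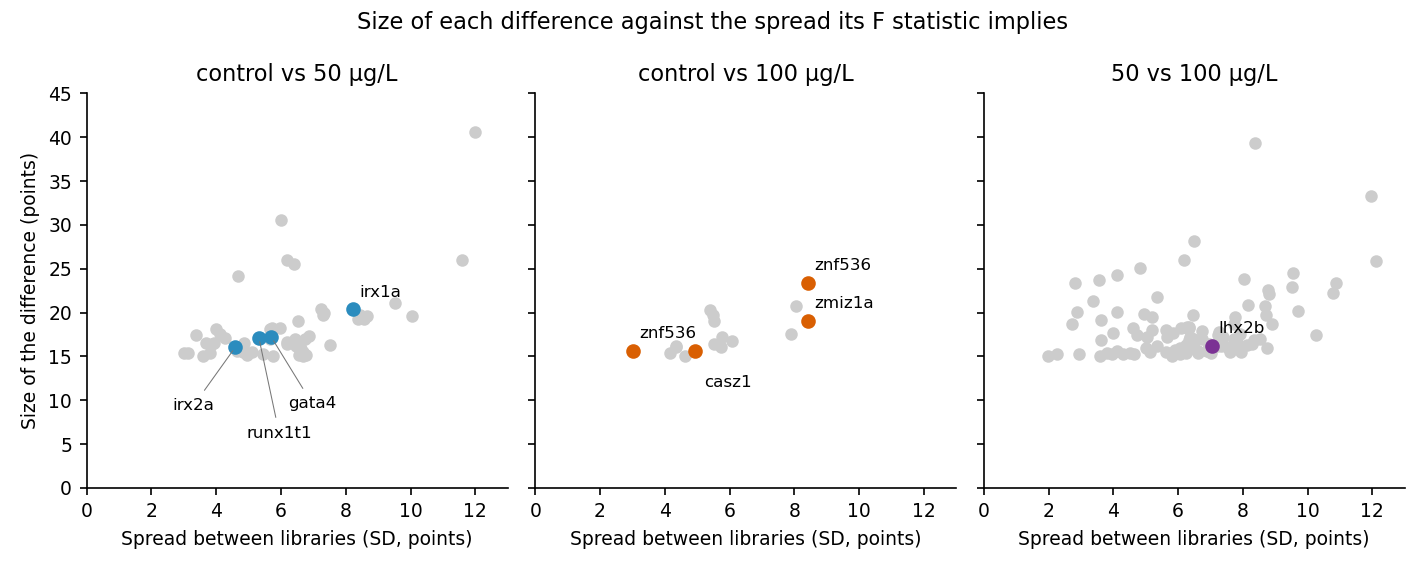
Size of the listed difference against the SD between libraries implied by F, both in percentage points, for all listed fragments (grey) and the 9 fragments (coloured) by comparison. The znf536 fragments lie at both ends of the spread in the middle panel, at 3.02 and 8.43 points.

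Neighbouring fragments could be compared at irx1a with irx2a and at the 2 znf536 fragments. Within a comparison, 6 pairs of listed fragments lay within 100 kb of each other, and 5 of the 6 had the same direction. The Iroquois pair was the 1 pair of opposite direction. The znf536 pair and the 4 pairs without one of the 8 genes had the same direction. Gaps in those 4 were 0.001, 0.037, 62.5 and 77.1 kb, so some were almost adjacent fragments. The Iroquois fragments were 79.96 kb apart and the znf536 fragments 72.9 kb. The pairs are too few and too unlike in gap to give a usual rate of agreement. The other 5 of the 9 fragments had no listed neighbour within 100 kb, so nothing nearby speaks to their direction. Neighbours share the same pools and were all selected by the authors, and fragments that were not listed were not analysed here.

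Genes of the same functions beyond the 8 were looked up in the tables. Of 148 genes on 4 lists of heart, brain and patterning regulators and of cofactors, 14 had a listed fragment, 8 being the genes described above. The other 6 genes had 7 entries, 5 higher and 2 lower in the second group. All but a neurod6a entry at 50 µg/L against control came from the comparison of doses. There 64.6% of all listed fragments were higher, against 41.8% at 50 µg/L against control, so nothing is read from these directions. The heart list, of 30 genes, added zfpm2a, a cofactor that binds GATA factors. Its intronic fragment has 61.8% at the lower and 78.1% at the higher dose in the authors' deposited table (difference 16.2 points, SE 6.21, interval 0.290 to 32.2). The zfpm2a difference is opposite in sign to that of gata4, but 50 µg/L is the first group for zfpm2a and the second for gata4. Each fragment had the lower of its 2 listed levels at 50 µg/L, so nothing is read from the signs.

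The brain list, of 48 genes, added the neuronal factors neurod6a and neurog1 and the forebrain factor gene dlx6a, with 2 entries higher and 2 lower. The exonic neurod6a fragment has 9.96% in control, 25.1% at the lower and 9.86% at the higher dose in the authors' deposited tables, under the levels of the 9 fragments. Unlike any of the 8 genes, neurod6a was listed for the same fragment in 2 tables. The neurog1 fragment was 594.6 kb from its gene and has 33.3% at the lower and 49.0% at the higher dose in the authors' deposited table (SE of the difference 4.997). The dlx6a fragment, 35.6 kb from its gene, has 77.2% and 54.9% in the same order of doses (SE 8.24) in that same authors' deposited table. The patterning list, of 48 genes, added nkx3.2, a jaw joint factor gene, with a fragment 27.6 kb from the gene. The authors' deposited table gives it 69.3% and 84.3% at the same doses (SE 4.11). The 28 cofactors added GATAD2B, a subunit of a chromatin remodelling complex, with a fragment 152.9 kb from the gene. The authors' deposited table gives it 58.2% and 75.96% in the same order (SE 5.54). Among the 99 p values between doses, zfpm2a, dlx6a, neurog1, GATAD2B and nkx3.2 ranked 94, 93, 68, 65 and 36, and neurod6a 13. Of those 99 fragments, 33.3% were at or under the deposited threshold for their rank. No other Iroquois gene of the 11 on the patterning list, and no paralogue of zmiz1a or runx1t1 on the lists, was assigned a listed fragment. The tables give no background of tested genes, so these counts were not tested.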

How the data were processed

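The 12 libraries were made from MspI fragments of 40 to 220 bp and read from one end for 100 bp, per the labels' protocols. Positions are on Zv9, per the submitters' processing notes. For the aligner, caller, coverage minimum and number of tests nothing is given in the sources used here, and read depth is unknown. The deposited tables hold the authors' methylation level per group as a fraction, printed here as percent, and the authors' unadjusted p-value of an F test, per the file headers.

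Columns were read by position, with the gene name in column 20, since one header is displaced. That the first level belongs to the first named group was checked on fragments listed in more than 1 table: the shared group had the same level within 0.01 points in 18 of 18. SE is the size of the difference over the square root of F, and intervals take t at the degrees of freedom printed with F. Both were tested on simulated libraries without any selection. The listed fragments were selected, with differences of at least 15 points and p values up to 0.053. Coverage of 95% was therefore not tested for them, and that 9 of 9 intervals left out 0 is not read as a result. For the 9 fragments, p recomputed from F differed from the deposited p by at most 0.0741%. Gaps to genes and islands are edge to edge. Python 3.11.15 and SciPy 1.17.1 were used. No test between groups was run. Whether the pools come from 1 experiment was not established here, and the spread between them may be partly technical.

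Members, gene lists and alternatives were chosen with earlier results of these data known. Named were every fragment of a member, every list gene with a listed fragment and every fragment within 100 kb of a member's in the same comparison. All 8 names were found in the RefSeq gene table, 8 of them on the deposited chromosome. Sequences were not used here.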

Additional observations from a re-analysis of the deposited data

How the results depend on the processing

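Counts of the 9 fragments depended on the limit applied. With differences of at least 20 points, 1 of 4 was left at 50 µg/L against control (irx1a), 1 of 4 at 100 µg/L against control (the outer znf536 fragment) and 0 of 1 between doses, beside 9 of 55, 3 of 17 and 23 of 99 over all listed fragments. With p at most 0.01, 1 (runx1t1), 2 (casz1 and the inner znf536 fragment) and 0 were left in the same order, beside 21, 9 and 33 of all listed. Requiring all 4 libraries in both groups left 0 of 4, 3 of 4 and 0 of 1, beside 4 of 55, 9 of 17 and 12 of 99. Requiring a fragment to lie in its gene or within 10 kb left 2 of 4 (gata4 and runx1t1), 2 of 4 (casz1 and zmiz1a) and 0 of 1, beside 31, 8 and 45 of all listed. Matching names without letter case changed no count. The 9 differences recomputed from the levels equalled the listed sizes within 0.01 points, and SE from p moved by at most 0.0214%. The adjusted p of lhx2b by Benjamini-Hochberg was 0.142 over the 368 tests implied at a level of 0.1, beside 0.0712 over 184. Both rest on its rank among listed fragments and are not corrected for their selection on the difference. Leaving out each replicate was not run, as values per library were not analysed here. No paired analysis was possible because the tables carry group levels only. Read depth is unknown, so it cannot be said which of the 9 rests on few reads.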

Other observations

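Transcription regulators outside the 4 lists were also assigned listed fragments, and 6 were named after their values were seen. Of these 6 entries, 5 were lower in the second group and 1 higher. Over all listed fragments, 64.6% were higher between doses and 47.1% at 100 µg/L against control. Since the 6 were picked with their values known, nothing is read from this count. Of the 99 p values between doses, those of pitx1, zfhx4, sall1a, rxrbb and zbtb43 ranked 69, 66, 61, 24 and 17. Only 33.3% of those 99 were at or under the deposited threshold for their rank. The zinc finger gene zbtb43 has 90.9% at the lower and 62.7% at the higher dose in the authors' deposited table, a difference of −28.2 points (SE 4.95), and its fragment lay 2.55 kb from an island. Pitx1, a hindlimb and pituitary factor gene, had 55.4% and 34.6% at the same doses (SE of the difference 6.63) at 26.9 kb from the gene in the authors' deposited table. Sall1a, a zinc finger gene of limb and kidney development, had, in the same order, 68.9% and 51.8% (SE 5.16) at 339.7 kb from the gene in the authors' deposited table. The fragment assigned to rxrbb, a retinoid X receptor gene, had, again from lower to higher dose, 89.3% and 73.7% (SE 3.13) at 121 kb in the authors' deposited table. Zfhx4, a zinc finger homeobox gene, was the 1 higher entry, on an intron, and the authors' deposited table gives it 39.2% and 57.9% (SE 5.91) at the lower and the higher dose. At 100 µg/L against control, nfe2l1a, a stress-response factor gene, had 41.3% after 61.0% in control (SE 4.47) in the authors' deposited table. Its fragment lay 32.4 kb from the gene.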
